A study of Mus musculus with 28 samples.

Results

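The miRNAs described here are 5 mature miRNAs cut from a cluster of hairpins on the mouse X chromosome: miR-322-5p (mmu-mir-322-5p in the tables), miR-322-3p (mmu-mir-322-3p), miR-503-5p (mmu-mir-503-5p), miR-542-3p (mmu-mir-542-3p) and miR-450a-5p (mmu-mir-450a-5p). They were chosen by name, from their place in this cluster and not by a threshold on their values. Of the 607 miRNAs listed in any of the 4 deposited tables, 308 were listed in all 4, and all 5 members were among these. Of 8 other arms of the same hairpins, 3 were listed in co-ex females, 6 in co-ex males, 7 in KO females and 7 in KO males. Small RNA of alveolar macrophages (AM), the phagocytes of the airspace, was sequenced in 28 libraries, each taken as a separate mouse. The question addressed was whether these members responded to ozone (O3), an oxidant gas, against filtered air (FA), and whether they moved together.

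The mice were 12 weeks old and breathed either FA or O3 over a period of 3 h. AM were collected after a further 4 h. Co-ex mice are humanized transgenic (hTG) animals that carry both human surfactant protein A genes, SP-A1 and SP-A2 (variants 6A2 and 1A0), on a C57BL/6J background without mouse SP-A. KO mice lack SP-A and carry neither human gene, so that all groups share the loss of the mouse protein. Females were synchronized for the estrous cycle. The 8 groups were co-ex female FA, co-ex female O3, co-ex male FA and co-ex male O3 with 4 libraries each, and KO female FA, KO female O3, KO male FA and KO male O3 with 3 libraries each. Each genotype and sex had its own table, scaled on its own, so exposure was compared within a table. Genotype and sex lie in different tables, and the genotypes and the co-ex sexes also in different runs of library codes, so that their effects cannot be told apart from these.

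Neighbouring miRNA hairpins are often cut from shared primary transcripts, and either arm of a hairpin can become the mature miRNA that guides Argonaute to messenger RNAs through its seed. miR-322-5p and miR-503-5p carry the seed of the miR-15 and miR-16 family, which is best known for restraining cyclins and other genes of the cell cycle. In myeloid cells this cluster has been linked to differentiation and to exit from the cell cycle.

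The mature sequences are shown because seed and arm decide which members can be read as copies of each other. They are from RefSeq (GRCm38.p6), 5′ to 3′, with the seed (bases 2 to 8) in capitals. All 13 arms of the cluster had an entry there. Of the 607 miRNAs listed in any table, 517 had one, and seeds were compared among these only.
miR-322-5p: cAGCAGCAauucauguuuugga
miR-322-3p: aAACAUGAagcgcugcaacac
miR-503-5p: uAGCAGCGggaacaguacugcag
miR-542-3p: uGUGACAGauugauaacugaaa
miR-450a-5p: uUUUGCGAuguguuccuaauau

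The seed of miR-322-5p was shared by 5 other listed miRNAs with an entry: miR-15a-5p, miR-15b-5p, miR-16-5p, miR-195a-5p and miR-497a-5p. miR-503-5p had the same bases 2 to 7 as these and differed at base 8. The seed of miR-322-3p had bases 2 to 7 in common with miR-218-1-3p. No other listed miRNA with an entry shared a seed with miR-542-3p or miR-450a-5p. The listed miRNAs without an entry could not be checked. By bases 2 to 7 the members fall into 4 seed groups, and miR-322-5p and miR-503-5p form the group of 2.

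The 7 hairpins lie on the minus strand of chromosome X within 6353 bases (chrX:53047997-53054349, GRCm38.p6). Mir322 comes first in the direction of transcription. Mir503 starts 295 bases downstream of the Mir322 start, Mir351 996 bases, Mir542 4862 bases, Mir450-2 5982 bases, Mir450-1 6105 bases and Mir450b 6271 bases. miR-322-5p lies at chrX:53054306-53054327, miR-322-3p at chrX:53054269-53054289, miR-503-5p at chrX:53054027-53054049 and miR-542-3p at chrX:53049415-53049436. miR-450a-5p has 2 identical copies, in Mir450-1 (chrX:53048206-53048227) and in Mir450-2 (chrX:53048339-53048360), and its reads cannot be assigned to either. The hairpins overlapped no other annotated gene. The lincRNA Gm28730 lies between them, and the transcript C430049B03Rik lies upstream on the same strand.

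The libraries held 41542 to 2082034 reads on listed miRNAs (median 490152), recovered from the normalized values as described under the processing. At these depths 3 reads, the limit that a count of 0 allows, correspond to 1.04 to 12.9 normalized units. Co-ex libraries were shallower than KO libraries, with group medians of 149548.5 to 408363 reads against 593136 to 1397128. 2 libraries, co-ex female FA replicate 3 and co-ex female O3 replicate 1, held fewer than 100000 reads. 3 KO FA libraries (KO female FA replicates 2 and 3, KO male FA replicate 3) had library codes outside the run of the other KO libraries. The macrophage and myeloid markers were all listed (6 of 6, summed level 42505 to 223060 rpm, reads scaled to 1000000 per library). Of these, miR-223-3p, a myeloid marker, was at 0 in no library (median 5454 rpm), and miR-142a-3p was at 0 in 2 of 28 (median 162 rpm). The medians of miR-142a-5p and miR-155-5p were 2211 and 430.5 rpm. By these medians the larger part of the sum was miR-146a-5p and miR-21a-5p, so the sum mainly reads those miRNAs and not miR-223-3p. The 11 epithelial markers were listed as well, and the median of miR-200b-3p, 5777 rpm, was near that of miR-223-3p. In KO females their summed level was 2244 to 5543 rpm in FA and 28268 to 51593 in O3. In KO males it was 2409, 3082 and 29197 in FA, the last in the replicate with the outlying code, and 26277 to 35107 in O3. In co-ex the ranges overlapped: 21846 to 49993 in FA and 39623 to 59002 in O3 in females, and 5892 to 37265 and 4616 to 51551 in males. The part of these differences in the results on the members was not tested. In such bulk samples fewer cells of a type and less RNA per cell cannot be told apart.

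The members were of low to moderate abundance. The median over the 28 libraries was 598 rpm for miR-322-3p, 191 for miR-322-5p, 151 for miR-503-5p, 82.2 for miR-450a-5p and 46.0 for miR-542-3p. These medians stood on 237, 92.5, 56, 42.5 and 20 reads. miR-322-3p had the highest group median in all 8 groups. miR-542-3p had the lowest in 6 groups, and miR-450a-5p in the other 2, KO female O3 and KO male O3. Between these ends the order of miR-322-5p, miR-503-5p and miR-450a-5p changed from group to group. Adapter ligation differs between miRNAs, so that the order of reads is not an order of molecules. miR-322-5p was at 0 in 2 of 28 libraries, miR-322-3p in 1, miR-503-5p in 2, miR-542-3p in 4 and miR-450a-5p in 3.

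Across groups, the median level of miR-322-3p ran from 207 rpm (co-ex female FA) to 1217 (KO male FA). The 4 KO groups stood at 995 to 1217 and the 4 co-ex groups at 207 to 400. miR-503-5p ran from 25.7 in co-ex female FA to 262 in KO female FA. miR-322-5p spanned a narrower range, from 109 in co-ex female FA to 242 in co-ex male FA. miR-542-3p had a median of 0 in KO female FA, where 2 of 3 libraries held no read, and 81.4 in co-ex female O3. miR-450a-5p ran from 43.9 in KO female FA to 373 in co-ex female O3. The 5 members together summed to a group mean of 490 ± 322 rpm (SD, n = 4) in co-ex female FA, the lowest, and of 1723 ± 362 (SD, n = 3) in KO female O3, the highest.

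**Figure D1:**
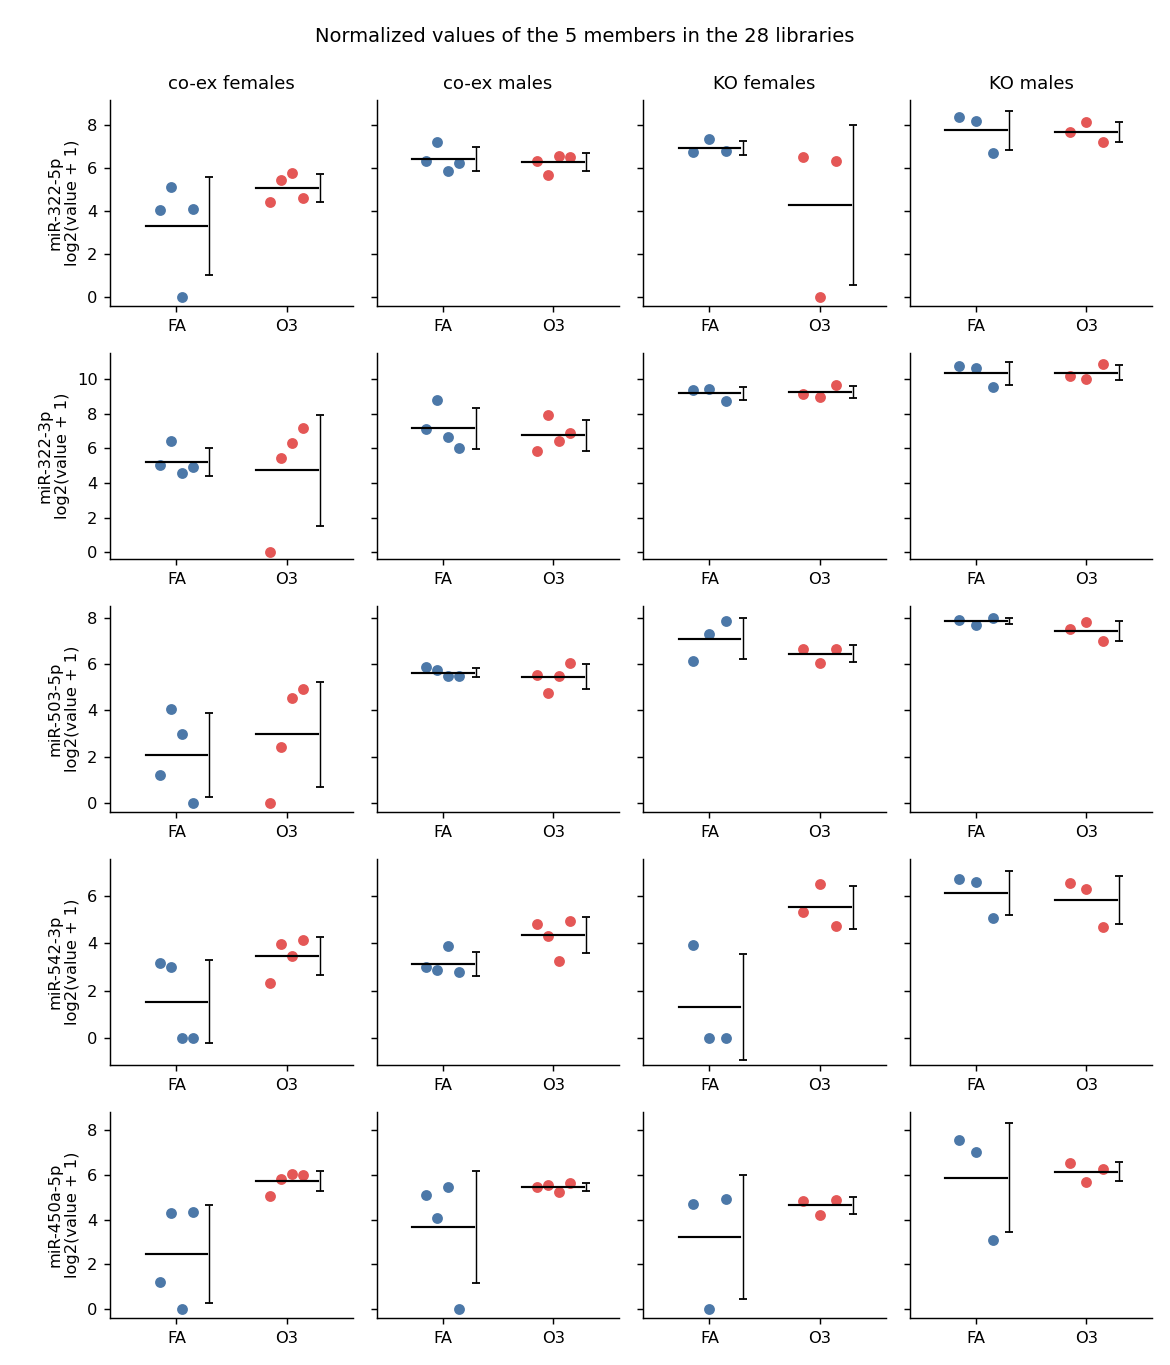
Normalized value of each member (rows) in each library by table (columns), on the log2(value + 1) scale, with points for single libraries, horizontal lines for group means and vertical bars for 1 SD (n = 4 per co-ex group and 3 per KO group). miR-450a-5p in co-ex females and miR-542-3p in KO females lay higher in every O3 library than in any FA library, while points at 0 set the wide bars.

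miR-542-3p and miR-450a-5p, the members cut from the far end of the cluster, were the 2 that rose with O3 when the 4 tables were averaged. miR-542-3p rose by 1.77 on the log2(value + 1) scale and miR-450a-5p by 1.69. For miR-322-5p, miR-322-3p and miR-503-5p, from the near end, the average differences were -0.29, -0.20 and -0.09 and did not pass the test. The test was limma on the 230 miRNAs kept by the filter on low values in all 4 tables, at an adjusted p of 0.1. It called 20% of these miRNAs in either direction, and 14.8% as higher, against 2 of 5 members called higher and 0 called lower. The median over the 5 members was -0.09, against 0.08 over all 230 miRNAs.

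miR-542-3p is known for targeting the mRNA of survivin, an inhibitor of apoptosis. In co-ex females its normalized values were 7.88, 6.92, 0 and 0 in FA, and 4.02, 14.6, 10.1 and 16.7 in O3. In co-ex males they were 7.05, 6.35, 13.6 and 5.85 in FA, and 27.4, 18.8, 8.64 and 30.3 in O3. The groups overlapped in both tables, although 3 of 4 O3 libraries lay above every FA library in each. In KO females the values were 14.1, 0 and 0 in FA and 39.9, 90.4 and 25.5 in O3, with no overlap. The 2 FA libraries without a read of miR-542-3p were the deep replicates 2 and 3, with 813151 and 744541 reads, in which 3 reads correspond to 2.20 and 2.10 normalized units. Both were among the libraries in which the recovery of reads rested on fewer low values. Of the 403 miRNAs listed in KO females, 112 and 105 were at 0 in these libraries, against 38 in FA replicate 1. In O3 replicates 1 to 3 the numbers were 27, 98 and 19. The limit of 3 reads covers counting error only. In KO males the values were 107, 97.4 and 32.8 in FA and 92.6, 77.7 and 24.9 in O3, and the groups overlapped.

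Over the 4 tables miR-542-3p rose by 1.77 (SE 0.485, 95% interval 0.77 to 2.77, limma adjusted p = 0.0135). Within tables the difference was 1.94 in co-ex females, 1.21 in co-ex males, 4.23 in KO females and -0.30 in KO males. None of these passed the adjusted threshold on its own. The KO female value came nearest (SE 1.38, 95% interval 1.05 to 7.40, limma adjusted p = 0.110). Of the 319 miRNAs tested in KO females, 13.2% were called. edgeR on the recovered reads gave an average of 1.44 (adjusted p = 0.0932) and a KO female value of 3.39 (adjusted p = 0.369). With the 3 KO FA libraries of outlying codes left out, the average was 0.98 (limma adjusted p = 0.217), and the KO female value, then against 1 FA library, was 1.61 (adjusted p = 0.764). Markers of other cell types moved with the KO female difference. Besides the epithelial markers named above, the summed level of the mesenchymal markers (5 of 7 listed) was 143 to 910 rpm in FA and 990 to 5032 in O3, and that of the endothelial markers (2 of 2 listed) was 8.97 to 15.99 and 48.9 to 674, with no overlap in either list. KO female O3 replicate 3 also stood apart for muscle markers (2 of 3 listed), at 85312 rpm. The part of these markers in the difference was not tested.

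miR-450a-5p had values of 1.31, 18.7, 0 and 19.4 in co-ex female FA and of 32.2, 55.9, 65.1 and 61.9 in co-ex female O3. All 4 O3 libraries lay above all 4 FA libraries. The red cell markers (3 of 4 listed) separated the same groups in the other direction, with a summed level of 12712 to 137286 rpm in FA and 2833 to 4284 in O3, and their part in the difference was not tested. In co-ex males the values were 33.7, 16.1, 43.6 and 0 in FA and 43.0, 46.2, 36.7 and 48.5 in O3. Here the O3 values fell in a narrow band that overlapped the top of the FA values. In KO females they were 24.8, 0 and 29.3 in FA and 27.2, 17.2 and 28.6 in O3, and in KO males 185, 128 and 7.46 in FA and 90.3, 50.1 and 75.7 in O3. Both KO tables overlapped, and in both the lowest value was in an FA library with an outlying code. The KO male one, FA replicate 3, had the lowest macrophage and myeloid sum of the series (42505 rpm). Its mesenchymal markers were at 25890 rpm, against 850 and 820 in FA replicates 1 and 2. Its endothelial markers were at 7177 rpm, against 10.7 and 11.2. Without this library the KO male differences were -1.12 for miR-450a-5p and -0.84 for miR-542-3p (limma adjusted p = 0.127 and 0.386). The part of these markers was not tested.

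The average difference of miR-450a-5p was 1.69 (SE 0.640, 95% interval 0.37 to 3.01, limma adjusted p = 0.0804). In co-ex females it was 3.26 (SE 1.04, 95% interval 1.02 to 5.50), the third smallest p of 271 miRNAs, but with a limma adjusted p of 0.556. It was 1.80 in co-ex males, 1.43 in KO females and 0.27 in KO males, with limma adjusted p-values of 0.944, 0.585 and 0.967. The average call was close to the threshold. Over 28 fits that each omitted 1 library the limma adjusted p ran from 0.0533 to 0.175, and the call was lost without any of 15 libraries (co-ex female FA replicates 1 and 3 and O3 replicates 2 and 4, co-ex male FA replicate 4 and O3 replicates 2 and 4, KO female FA replicate 2 and O3 replicates 1, 2 and 3, KO male FA replicate 3 and O3 replicates 1, 2 and 3). It was also lost without the 2 libraries under 100000 reads (1.54, limma adjusted p = 0.126), without the 3 KO FA libraries of outlying codes (0.97, limma adjusted p = 0.330), and in edgeR on reads (0.74, adjusted p = 0.443).

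miR-322-5p, a member of the miR-15 and miR-16 seed family, had values of 15.8, 33.2, 0 and 16.3 in co-ex female FA and of 20.1, 42.1, 52.6 and 23.5 in co-ex female O3. The groups overlapped by 1 FA library. In co-ex males the values were 78.3, 147, 57.2 and 74.5 in FA and 79.6, 49.6, 92.9 and 89.5 in O3. In KO females they were 105, 157 and 108 in FA and 88.3, 0 and 78.7 in O3, every O3 library lying below every FA library. The O3 library at 0, replicate 2, was the shallowest of the KO libraries (111080 reads, 3 reads being worth 12.9 units) and held 118 reads of the other arm. In KO males they were 321, 285 and 103 in FA and 199.9, 278 and 147 in O3. The limma differences were 1.73 in co-ex females, -0.15 in co-ex males, -2.67 in KO females and -0.07 in KO males, with adjusted p-values of 0.778, 0.944, 0.391 and 0.993. Leaving out the KO female O3 library at 0 brought the KO female difference to -0.53.

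miR-503-5p, which shares that family's core seed, had values of 1.31, 15.9, 6.98 and 0 in co-ex female FA and of 0, 4.30, 22.5 and 29.7 in co-ex female O3. In co-ex males they were 57.2, 52.6, 43.6 and 43.8 in FA and 45.7, 25.7, 44.7 and 65.2 in O3. The groups overlapped in both tables. In KO females they were 70.0, 156 and 235 in FA and 101, 64.6 and 101 in O3, and in KO males 239.8, 209.6 and 255 in FA and 182, 229 and 127 in O3. The limma differences were 0.90, -0.18, -0.65 and -0.42 in co-ex females, co-ex males, KO females and KO males. None passed the test (adjusted p-values 0.891, 0.944, 0.582 and 0.952).

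miR-322-3p, the other arm of the miR-322 hairpin, had values of 31.5, 84.4, 22.7 and 29.5 in co-ex female FA and of 0, 43.0, 76.9 and 142 in co-ex female O3. The library at 0 was the shallowest of the series. In co-ex males the values were 139, 437, 101 and 64.3 in FA and 55.8, 247, 83.6 and 115 in O3. In KO females they were 655, 685 and 431 in FA and 559, 508 and 808 in O3, and in KO males 1745, 1616 and 751 in FA and 1170, 1044 and 1839 in O3. FA and O3 overlapped in each of the 4 tables. The limma differences were -0.51, -0.39, 0.08 and 0.03 in the same order of tables, with adjusted p-values of 0.918, 0.944, 0.935 and 0.993.

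Table by table, limma called 0 of the 5 members in co-ex females, where it called 0.369% of 271 miRNAs, and 0 in co-ex males, where it called 0% of 312. It called 0 of 5 in KO females, against 13.2% of 319, and 0 of 5 in KO males, against 0.909% of 440 (4 miRNAs, or 1 with the replicate number as a block). At an unadjusted p under 0.05, 1 member (miR-450a-5p) passed in co-ex females against 5.9% of all miRNAs, 0 in co-ex males against 3.53%, 1 (miR-542-3p) in KO females against 25.7% and 0 in KO males against 7.27%. edgeR on reads also called 0 members in each table (1, 0, 36 and 2 of all miRNAs, in the same order). FA and O3 did not overlap for 1 of 5 members in co-ex females (4.06% of all miRNAs), 0 in co-ex males (2.88%), 2 in KO females (31.3%) and 0 in KO males (12.7%). Of these, miR-450a-5p in co-ex females and miR-542-3p in KO females were higher in O3, and miR-322-5p in KO females was lower.

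**Figure D2:**
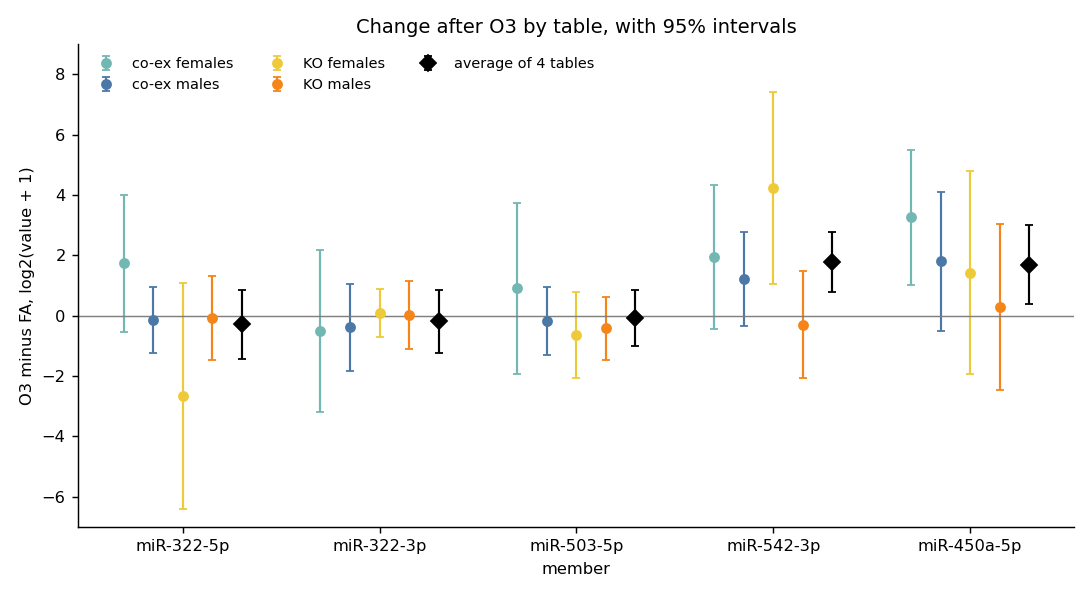
Difference between O3 and FA on the log2(value + 1) scale for each member in each table and on average, with 95% intervals from limma. The average intervals of miR-542-3p (0.77 to 2.77) and miR-450a-5p (0.37 to 3.01) lie above 0, and those of the other 3 members span 0.

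Whether the response differed between tables was tested in the fit over all 28 libraries. Between genotypes in females, miR-322-5p had the largest difference of the 5 members: the O3 response in co-ex minus that in KO was 4.40 (SE 1.57), with a limma adjusted p of 0.119. 0 of 5 members were called, against 6.09% of 230 miRNAs. Between sexes in KO, the response of miR-542-3p was lower in males, with a male minus female difference of -4.53 (SE 1.47). This was the smallest p of 230 miRNAs, with a limma adjusted p of 0.571. 0 members and 0% of miRNAs were called there, as between sexes in co-ex (0%) and between genotypes in males (0%). At an unadjusted p under 0.05 limma gave 1 member (miR-322-5p) and 17% of miRNAs between genotypes in females, 1 member (miR-542-3p) and 4.78% between sexes in KO, and 0 members in the other comparisons, with 4.35% of miRNAs between sexes in co-ex and 2.17% between genotypes in males. With each library left out in turn, the miR-322-5p difference ranged from 2.26 to 5.50 (limma adjusted p = 0.0553 to 0.406). The lowest value was that without KO female O3 replicate 2, the library in which miR-322-5p was at 0. The adjusted p was under 0.1 in 4 of 28 cases, those without co-ex female FA replicate 2, co-ex female O3 replicate 1, KO female O3 replicate 1 or KO male FA replicate 3. edgeR on the recovered reads gave 2.23 (adjusted p = 0.339). The miR-542-3p difference ranged from -5.84 to -3.88 (limma adjusted p = 0.0577 to 0.997), and was under the threshold only without KO female FA replicate 1. With the 3 KO FA libraries of outlying codes left out it was -2.45 (adjusted p = 0.996).

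Of the 8 other arms of the cluster, 3 passed the filter in every table, and their average differences lay nearer to 0 than those of miR-542-3p and miR-450a-5p. The average difference was 0.07 (SE 0.238) for miR-351-5p, -0.29 (SE 0.425) for miR-351-3p and 0.10 (SE 0.654) for miR-450b-3p, with limma adjusted p-values of 0.879, 0.716 and 0.946. miR-450b-3p comes from Mir450b, the last hairpin, which starts 6271 bases from the Mir322 start, beside the hairpins of miR-450a-5p. Its SE was close to that of miR-450a-5p, and the difference between these arms was not tested. By table, the difference of miR-450b-3p was 1.08 in co-ex females, -0.03 in co-ex males, 0.01 in KO females and -0.68 in KO males. The KO female values were 90.3, 129 and 0 in FA and 26.3, 8.61 and 45.5 in O3, so the library at 0 weighs on that difference. miR-542-5p, the other arm of the miR-542 hairpin, was tested in KO males alone, where its difference was -2.004 (SE 1.06, limma adjusted p = 0.764). Its mean normalized value was 3.96 in FA and 1.26 in O3 in co-ex males, and 6.02 and 3.47 in KO females. In both tables the mean of miR-542-3p was higher in O3. These values of miR-542-5p were low, overlapped between FA and O3, and included libraries at 0 in each group.

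**Figure D3:**
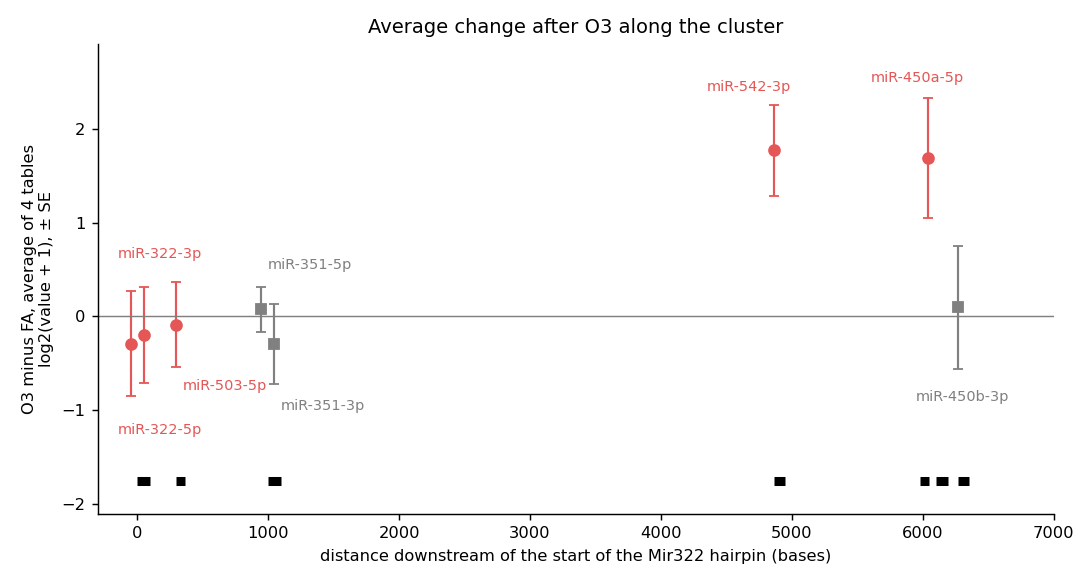
Average difference between O3 and FA (log2(value + 1), bars are 1 SE) against the distance of each hairpin's start from the Mir322 start in bases; red circles are members, grey squares other arms, black blocks the 7 hairpins, miR-450a-5p stands midway between its 2 hairpins, and arms of 1 hairpin are set slightly apart. miR-542-3p (1.77) and miR-450a-5p (1.69) stand above the rest, which lie between -0.29 and 0.10.

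The ratio of 2 members within a library depends on the scaling of the library through the pseudocount only. Each average below is the difference of 2 of the average changes given above. The ratios were chosen after the values were seen and are given as a description. They hold members only, so miR-450b-3p from the last hairpin, with an average difference of 0.10, is not among them. All 6 ratios of a near-end member to a far-end member were lower in O3 on average, by log2 differences of -2.06 (miR-322-5p over miR-542-3p), -1.98 (miR-322-5p over miR-450a-5p), -1.97 (miR-322-3p over miR-542-3p), -1.89 (miR-322-3p over miR-450a-5p), -1.86 (miR-503-5p over miR-542-3p) and -1.78 (miR-503-5p over miR-450a-5p). The 4 ratios within an end differed by -0.20 to 0.08. In co-ex males the 6 ratios ran from -2.19 to -1.36, and in KO males from -0.70 to 0.33. KO females held the most negative value, -6.89, which includes libraries at 0. Without the 3 KO FA libraries of outlying codes the 6 averages were -1.35 to -0.80.

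**Figure D4:**
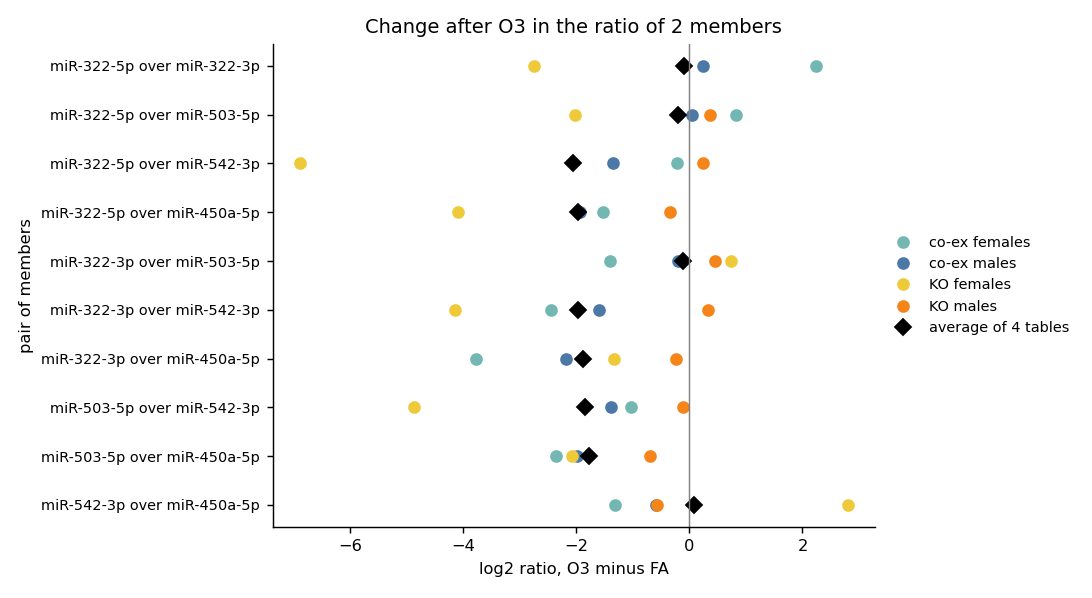
Difference between O3 and FA in the log2 ratio of 2 members for the 10 pairs, with circles for the tables and diamonds for the average of 4 tables. The 6 pairs of miR-322-5p, miR-322-3p or miR-503-5p over miR-542-3p or miR-450a-5p have averages of -2.06 to -1.78, and the other 4 lie near 0 on average with tables on both sides.

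To see whether the members moved together between libraries of a group, each value was taken as its deviation from the mean of its group, for the 8 groups, and the 10 pairs were correlated over 28 libraries. All 10 coefficients were above 0, with a median of 0.263. Over the 26335 pairs of all 230 miRNAs the median was 0.0081, the upper quartile 0.253, and 50.9% were above 0. A coefficient of at least 0.5 was reached by 10% of the member pairs and by 7.80% of all pairs. Other arms of the cluster went both ways. Their coefficients with the members ran from -0.30 to 0.20 for miR-351-5p, from -0.43 to 0.20 for miR-351-3p and from 0.15 to 0.62 for miR-450b-3p. 0 of the 10 pairs passed an adjusted p of 0.1 in the permutation test (two-sided, libraries permuted within groups), against 5 of 10 with a pseudocount of 0.1 and 0 to 5 without single libraries. The largest coefficient was that of miR-322-3p and miR-503-5p (Pearson's r = 0.64, permutation p = 0.0412, adjusted over 10 pairs 0.107; Spearman's rho = 0.19, permutation p = 0.421). It fell to 0.22 without the 2 libraries farthest from the median, and to as low as 0.24 without a single library, and so depended largely on a single library. The coefficient was 0.71 in the 16 co-ex libraries and -0.39 in the 12 KO libraries.

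The 2 arms of the miR-322 hairpin correlated at r = 0.24 (permutation p = 0.0348, adjusted 0.107; rho = 0.39, permutation p = 0.0382; r = 0.28 without the 2 farthest libraries). miR-542-3p and miR-450a-5p, the pair that rose on average, correlated at r = 0.34 (permutation p = 0.232, adjusted 0.387; rho = 0.25, permutation p = 0.312; r = 0.38 without the 2 farthest libraries). Read depth moved with most members. The deviations correlated with those of log2 depth at r = 0.64 for miR-322-5p, 0.69 for miR-322-3p, 0.47 for miR-503-5p, 0.12 for miR-542-3p and 0.37 for miR-450a-5p. Without the 2 libraries under 100000 reads the 10 pair coefficients ran from -0.17 to 0.32. The part of depth in the pair coefficients was not tested further. The other miRNAs whose deviations were most like the mean deviation of the 5 members, of 225 compared over the 28 libraries, were miR-30d-5p (r = 0.80), miR-365-3p (0.79), miR-340-3p (0.76), miR-194-5p (0.76) and the myeloid miR-223-3p (0.74).

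Both arms of miR-322 are members, so that their balance can be read without any scaling. The 3p arm made up 66.7, 71.8, 100 and 64.4% of the reads of both arms in co-ex female FA and 0, 50.5, 59.4 and 85.8% in co-ex female O3. The values of 100% and 0% stood on 13 and 5 reads, in the libraries under 100000 reads, with exact 95% binomial intervals of 75.3 to 100% and 0 to 52.2%. In the other 26 libraries the half-width of that interval was 1.22 to 16.2 percentage points. In co-ex males the shares were 63.9, 74.8, 63.8 and 46.3% in FA and 41.2, 83.3, 47.4 and 56.3% in O3. In KO females they were 86.2, 81.3 and 80.0% in FA and 86.4, 100 and 91.1% in O3, and in KO males 84.5, 85.0 and 87.9% in FA and 85.4, 79.0 and 92.6% in O3. The 3p arm thus held the larger part of the reads in 24 of 28 libraries.

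The O3 difference in the share did not pass the test in any of the 4 tables. The group means were 75.7 ± 16.5% in FA and 48.9 ± 35.9% in O3 in co-ex females (SD, n = 4, exact permutation p = 0.257), and 62.2 ± 11.8% and 57.0 ± 18.6% in co-ex males (SD, n = 4, exact permutation p = 0.686). They were 82.5 ± 3.25% and 92.5 ± 6.92% in KO females (SD, n = 3, exact permutation p = 0.1, the smallest that 3 against 3 allows), where the shares of 80.0 to 86.2% and 86.4 to 100% did not overlap, and 85.8 ± 1.87% and 85.7 ± 6.82% in KO males (SD, n = 3, exact permutation p = 1). Without co-ex female O3 replicate 4 the co-ex female difference was -39.1 percentage points (exact permutation p = 0.0571, the smallest that 4 against 3 allows), and without O3 replicate 1 it was -10.5 (exact permutation p = 0.514). Averaged over tables the difference was -5.53 percentage points (permutation p = 0.409, two-sided). Between genotypes, in a comparison chosen after the values were seen, the mean share was 61.0% in co-ex and 86.6% in KO, a difference of -25.7 percentage points (permutation within sex and exposure, two-sided p = 0.00051). Genotype, table, library codes and depth differ together here and cannot be told apart.

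**Figure D5:**
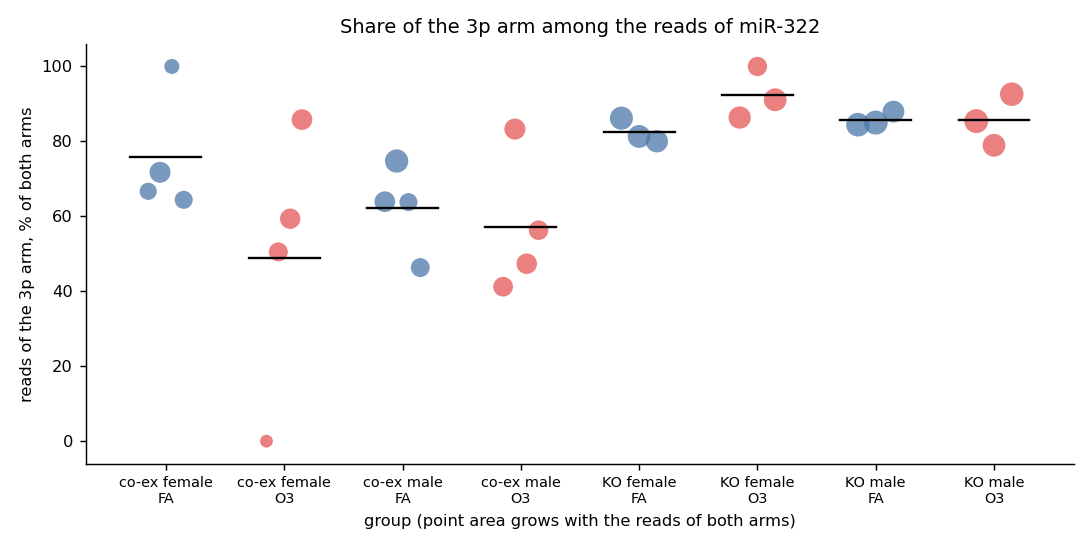
Share of the 3p arm among the reads of both arms of miR-322 in each library (percent) by group, with horizontal lines for group means and point area growing with the number of reads. KO libraries lie at 79.0 to 100% and co-ex libraries spread from 0 to 100%, with the 2 extreme co-ex values on the smallest read numbers.

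Levels between genotypes and sexes were compared on recovered reads with edgeR (303 miRNAs, adjusted p of 0.1). Between co-ex and KO females in FA, miR-503-5p was lower in co-ex by a log2 difference of -3.29 (edgeR adjusted p = 0.00796) and miR-322-3p by -2.46 (edgeR adjusted p = 0.0223). For miR-322-5p the value was -1.52 (edgeR adjusted p = 0.192), for miR-542-3p 0.98 and for miR-450a-5p 0.49, and these did not pass. Here 2 of 5 members were called, against 32.3% of all miRNAs. Without the KO FA libraries of outlying codes 0 members were called, with -1.91 for miR-503-5p (edgeR adjusted p = 0.293) and -2.43 for miR-322-3p (edgeR adjusted p = 0.104). In the other co-ex against KO comparisons miR-322-3p was at -1.69 (female O3), -1.04 (male FA) and -1.92 (male O3), with edgeR adjusted p-values of 0.210, 0.402 and 0.169. 0 of 5 members were called there by edgeR, against 10.2%, 18.5% and 6.93% of miRNAs. DESeq2 called 2, 0 and 1. At an unadjusted p under 0.05, 2 members, 0 and 1 passed, against 22.4%, 26.7% and 19.5% of miRNAs, and in female FA 2 against 36.6%. Between males and females edgeR called 0 of 5 in co-ex FA (15.2% of miRNAs), co-ex O3 (9.9%), KO FA (3.3%) and KO O3 (0.66%), and DESeq2 called 1, 0, 1 and 0. At an unadjusted p under 0.05, 1, 0, 1 and 0 members passed, against 23.1%, 18.8%, 20.5% and 3.3%. The nearest was miR-503-5p in co-ex FA, higher in males by 2.13 (edgeR adjusted p = 0.102).

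The weight of miR-322-5p and miR-503-5p within their seed family was small. Of the reads of these members and of miR-15a-5p, miR-15b-5p, miR-16-5p, miR-195a-5p and miR-497a-5p, they made up 0.628 to 6.72% over the 28 libraries. miR-497a-5p was listed in the KO male table alone, so 6 of these 7 miRNAs entered the sum in the other 22 libraries. The group medians were 1.32% in co-ex female FA and 2.36% in co-ex female O3, and 2.37% and 1.77% in co-ex males. They were 4.18% and 2.92% in KO females, and 1.81% and 1.67% in KO males. The other family members thus held most of the reads that carry this seed in every library.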

How the data were processed

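Small RNA libraries (NEXTflex kit, Illumina) were aligned and counted by the authors with Chimira after adapter and quality trimming; the aligner's settings and the genome build are not given in the sources used here. The authors deposited 4 tables of normalized read counts (signal), one for each genotype and sex. The deposited tables also hold the authors' own comparisons (mean and log2 ratio columns, p-values, q-values and a score of rank), which were not used. In the deposited signal, each library's values were whole multiples of 1 step (tolerance 0.01), which gave back whole reads; 100% of values came out whole. In 5 libraries (co-ex female O3 replicate 4, co-ex male FA replicate 4 and KO female FA replicates 1 to 3) fewer than 100 values were low enough to show single reads, so the recovery rested on fewer values there.

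limma 3.58.1 (R 4.3.3) was run on log2(value + 1). A miRNA was kept if enough libraries to fill the smaller group reached 5. p-values were adjusted by Benjamini and Hochberg's method, and 0.1 was the threshold. edgeR 4.0.16 and DESeq2 1.42.0 were run on recovered reads. Exact permutation tests were run in scipy 1.17.1, and those with 100000 resamples in numpy 2.4.6. Intervals and limits of counts cover counting error only. Fits were tested on simulated counts of fixed dispersion, which held no outlying libraries. Libraries are titled with genotype, exposure, sex and a number, and were taken as separate mice. The p-values measure the spread between them.

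The members were named by rule, with other arms of the cluster, miRNAs sharing a seed, the 5 miRNAs most like the members, and markers; members, lists and tests were chosen with earlier results of these data known. Deviations of same-numbered KO male libraries correlated at r 0.107 to 0.338 over 3 pairs. Of the unlike numbers there, FA replicate 2 with O3 replicate 1 reached 0.26 and FA replicate 1 with O3 replicate 2 reached 0.18. The other unlike pairs in KO males ran from -0.33 to -0.16. Same-numbered pairs in the other tables had r of -0.22 to 0.26. So few pairs cannot decide whether libraries were paired by number, and this was not tested. Alternatives were another pseudocount, no filter, total scaling, edgeR or DESeq2, a replicate block, and leaving out libraries.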

Additional observations from a re-analysis of the deposited data

Results flagged for a closer look

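In co-ex female FA, replicate 2 stood apart for miR-322-3p, at 84.4 normalized units against 22.7 to 31.5 in the other 3 libraries; it was the deepest library of that table, with 488993 reads. In co-ex male FA, replicate 3 stood apart for miR-542-3p, at 13.6 normalized units against 5.85 to 7.05 in the others. Both were found by the gap of the highest value to its neighbour over the range of the group. With 24 groups of 4 libraries examined and about 1 in 20 expected to be picked by chance, 2 were picked.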

How the results depend on the processing

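Of the 5 members, the number called on average (2) was 1 with a pseudocount of 0.1, with edgeR and without the libraries under 100000 reads, 0 without the KO FA libraries of outlying codes, and 1 to 2 without single libraries; both left-out sets were chosen after seeing the data. miR-542-3p passed in 28 of 28 left-out fits and in 6 of 7 other settings (log2 difference 0.98 to 2.74). With values scaled to library totals, 1 member was called in KO females (miR-542-3p, limma adjusted p = 0.0971), as it was without KO female FA replicate 1 (range 0 to 1). With the replicate number as a block, 2 members were called on average and 0 in each table, and 37 of all miRNAs in KO females; the miRNAs called for the difference between genotypes in females went from 14 to 1. Same-numbered libraries are not known to share more than a number. No other call on a member changed with the block.

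For levels, DESeq2 size factors gave 1 call between sexes in co-ex FA, and DESeq2 gave 1 there, 1 between sexes in KO FA, 2 between genotypes in female O3 and 1 in male O3. Without the libraries under 100000 reads 1 was called in male O3. Without the outlying codes 0 were called in female FA and 1 in female O3. Without single libraries the numbers were 0 to 1 for both differences of response that changed (sexes in KO, genotypes in females), for levels between sexes in co-ex FA and KO FA and between genotypes in male FA and male O3, and 2 to 3 in female FA. Pairs correlated under the threshold numbered 5 with a pseudocount of 0.1 and 0 to 5 without single libraries.

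Differences that did not pass the test changed sign. These were, with total scaling, miR-322-5p in KO males (0.18) and miR-503-5p on average (0.016); with edgeR, miR-322-3p in co-ex females (0.65) and miR-450a-5p in KO males (-0.54); without the shallow libraries, miR-322-3p in co-ex females (0.84) and on average (0.14) and miR-503-5p on average (0.24); and without the outlying codes, miR-322-3p (-0.10), miR-503-5p (0.31) and miR-450a-5p (-0.061) in KO females, miR-322-3p (-0.36) and miR-450a-5p (-1.12) in KO males and miR-503-5p on average (0.17). The r of miR-322-3p and miR-503-5p was -0.39 in KO alone. As log2 ratios, the arm difference was 0.0456 on average and 0.10 in KO males. Without single libraries the ranges were, for miR-322-5p, -0.56 to 0.25 on average, -0.33 to 0.12 in co-ex males and -0.58 to 0.23 in KO males; for miR-322-3p, -0.40 to 0.20 on average, -1.32 to 1.07 in co-ex females, -0.79 to 0.15 in co-ex males, -0.13 to 0.22 in KO females and -0.36 to 0.25 in KO males; for miR-503-5p, -0.26 to 0.16 on average and -0.38 to 0.059 in co-ex males; for miR-542-3p in KO males, -0.84 to 0.27; for miR-450a-5p, -0.18 to 2.28 in KO females and -1.12 to 1.11 in KO males; and for the 3p share, -8.60 to -1.45 points on average, -13.9 to 0.12 in co-ex males and -3.63 to 3.20 in KO males. The cause of these changes was not tested. Median counts of 20 to 237 reads limit the precision of the members, and a fold of a member at 0 reads depends on the pseudocount.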
